A study of Homo sapiens with 8 samples.

Results

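Epithelial-mesenchymal state was followed through 10 genes: the cadherins CDH1 and CDH2, the filament protein gene VIM, the matrix protein gene FN1, the transcription factor genes ZEB1, ZEB2, SNAI1, SNAI2 and TWIST1, and the splicing factor gene ESRP1. They were taken by name, as the rows of the 8 deposited count tables whose transcripts map to these symbols. The rule uses no measured value, but the names were chosen with earlier results of these data known. Each gene had 1 row of its own among the 20165 rows of a table. The samples were RNA-seq libraries of OVCAR3, a human ovarian carcinoma cell line, made from ribosomal RNA-depleted total RNA of the lysates that also served for ribosome profiling. In the siRNA experiment, OVCAR3 cells received 30 nM of a control siRNA (siControl) or of an siRNA against OARD1, the gene of the ADP-ribosyl hydrolase TARG1 (siTARG1), for 48 h. In the RACK1 experiment, OVCAR3 cells carried 2 lentiviral Dox-inducible constructs, a pTRIPZ shRNA against RACK1 and an HA-tagged RACK1, and were kept in Dox (1 µg/ml) during the last 48 h. The HA-tagged RACK1 was either wild-type (RACK1-WT) or mutated at the sites that accept mono-ADP-ribose (RACK1-Mut). Both RACK1 groups thus shared the knockdown, the drug selection and Dox, whereas the siRNA groups shared the transfection and had neither construct. Each of the 4 groups had 2 libraries, and the study's methods state that its sequencing experiments used independent biological samples. The labels do not tie these libraries to separate cultures, and p-values measure the spread between the libraries. Which of the study's TARG1 siRNAs was used for these libraries is not given in the sources used here.

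Epithelial cells hold to each other through E-cadherin, the product of CDH1, whose tail binds catenins that link it to actin. In the epithelial-mesenchymal transition, cells lose E-cadherin, often gain N-cadherin (CDH2), vimentin (VIM) and fibronectin (FN1), and become motile. Transcription factors of the SNAI, ZEB and TWIST families drive this change, with SNAI and ZEB proteins binding E-box letters in the CDH1 promoter and repressing it, while ESRP1 keeps the splicing pattern of epithelial cells. Ovarian carcinomas often show an intermediate state in which epithelial and mesenchymal genes are expressed together.

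The promoters of FN1 and CDH2 are shown because these genes fell after TARG1 depletion and have an entry in the table used. The RefSeq promoter table (GRCh38.p14, a later build than that of the counts) matched 5 of the 10 genes. CDH1, SNAI1, SNAI2, TWIST1 and ESRP1 had no entry, so the CDH1 promoter was not searched. Each stretch holds 250 bases before and 50 bases after the annotated start, written 5′ to 3′ on the minus strand, on which both genes lie. FN1 is at chr2:215436019-215436318 and CDH2, for the first of its 2 annotated starts, at chr18:28177081-28177380. Capitals mark GC boxes (GGGCGG, or CCGCCC on the other strand), a cAMP response element (TGACGTCA) and a TATA sequence (TATAA), and FN1 holds 6 GC boxes, in part overlapping.
FN1: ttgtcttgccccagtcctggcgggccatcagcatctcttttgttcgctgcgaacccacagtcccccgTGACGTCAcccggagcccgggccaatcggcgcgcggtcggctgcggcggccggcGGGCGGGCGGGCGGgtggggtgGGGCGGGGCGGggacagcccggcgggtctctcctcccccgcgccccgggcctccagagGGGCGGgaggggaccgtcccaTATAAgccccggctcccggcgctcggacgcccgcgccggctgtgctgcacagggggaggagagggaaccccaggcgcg
CDH2: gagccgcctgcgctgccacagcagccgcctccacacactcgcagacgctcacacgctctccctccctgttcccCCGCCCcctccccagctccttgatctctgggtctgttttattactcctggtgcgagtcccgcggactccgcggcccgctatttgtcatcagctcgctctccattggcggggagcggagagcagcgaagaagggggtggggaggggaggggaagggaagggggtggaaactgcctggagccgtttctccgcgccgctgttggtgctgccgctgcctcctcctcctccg
The FN1 stretch was 76.7% G and C and the CDH2 stretch 67.0%. TGACGTCA, which reads the same on both strands, began 183 bases before the FN1 start and was found in 1.85% of all 35116 promoters of that length. TATAA, searched on the coding strand, began 28 bases before the FN1 start and was found in 14.8% of promoters, and GGGCGG or CCGCCC in 45.0%. The E-box letters CAGGTG or CACCTG were found in 20.6% of promoters and in neither stretch shown. Among the members with an entry, ZEB1 alone held them.

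Before the members, the labels and the cells were checked. OARD1 stood at 48.5 and 52.0 CPM (exon counts per 1000000 counts of the TMM-scaled library) in siControl and at 3.11 and 3.98 CPM in siTARG1, a log2 fold change of -3.83 (SE 0.12, edgeR adjusted p = 1.2e-10). RACK1 exon counts averaged 4570 ± 74.6 CPM in siControl (SD, n = 2) against 1830 ± 95.7 CPM in RACK1-WT and 1430 ± 40.3 CPM in RACK1-Mut, and these counts hold endogenous and HA-tagged RNA together. Total exon counts were between 30989049 and 42668783 per library. They made up 38.4 to 47.6% of the alignments behind the RPKM in the siRNA libraries and 51.4 to 56.2% in the RACK1 libraries. Of 12 ovarian carcinoma markers, all were detected, and their summed level was 4160 to 4330 CPM in siControl, 2630 to 2750 CPM in siTARG1, and 4300 to 4430 CPM in the RACK1 groups. The keratin genes KRT8 and KRT18, which build the filaments of simple epithelia, made most of the difference: KRT8 averaged 1160 CPM in siControl and 549 CPM in siTARG1, and KRT18 1290 and 520 CPM. The markers did not all fall. Between siTARG1 and siControl, 8 of the 12 had an edgeR adjusted p under 0.05, beside 46.6% of all genes tested. Of these, 6 were lower and 2 higher, namely KRT7 (159 CPM in siControl, 216 CPM in siTARG1) and FOLR1 (7.8 and 11.4 CPM). The part of KRT8 and KRT18 in the results below was not tested.

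The cadherins moved in opposite directions when TARG1 was depleted. CDH1, at chr16:68771195-68869440 on the plus strand (GRCh37, as all gene positions below), had 105 and 105 CPM in the siControl libraries and 296 and 297 CPM in the siTARG1 libraries. CDH2, at chr18:25512843-25757910 on the minus strand, had 338 and 353 CPM in siControl and 166 and 184 CPM in siTARG1. Neither gene's groups overlapped, and E-cadherin RNA rose while N-cadherin RNA fell. CDH1 was 2.82-fold higher in siTARG1 (log2 fold change 1.50, SE 0.07, edgeR adjusted p = 1.7e-09) and ranked 264th from the top of the 14024 genes tested. CDH2 was 1.98-fold lower (log2 fold change -0.98, SE 0.07, edgeR adjusted p = 1.2e-07). These are bulk libraries, in which fewer cells expressing a gene and less RNA per cell cannot be told apart.

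The ratio of the cadherins changed accordingly. On the authors' RPKM scale, which divides by transcript length and so allows genes to be compared, the CDH1 to CDH2 ratio was 0.275 and 0.265 in the siControl libraries and 1.59 and 1.43 in the siTARG1 libraries. N-cadherin RNA was thus the more abundant in both control libraries and E-cadherin RNA in both siTARG1 libraries. The ratio was 1.11 and 1.20 in RACK1-WT and 1.1 and 1.16 in RACK1-Mut, overlapping between these groups.

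**Figure D1:**
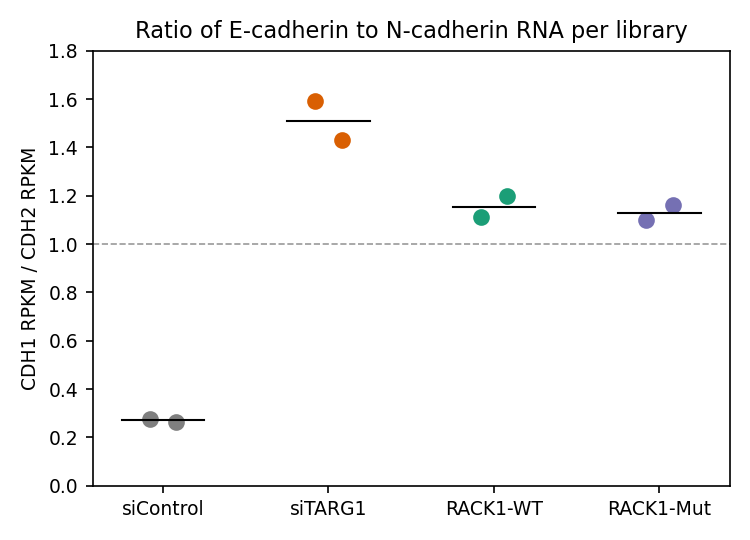
Ratio of CDH1 RPKM to CDH2 RPKM (vertical axis, no unit) in each of the 8 libraries (points), with the group mean as a bar and a dashed line at equal levels. The siControl libraries lie at 0.265 and 0.275, below the line, and the other 6 libraries lie above it.

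The cadherin changes were seen along the whole messages. For CDH1 the log2 ratio of siTARG1 to siControl mean CPM was 1.46 in coding exons, which held 64.4% of the exon counts, and 1.57 in the 3′ UTR, which held 35.4%. For CDH2 it was -0.97 in coding exons, -0.85 in the 5′ UTR and -1.05 in the 3′ UTR. Fitted on coding-sequence counts alone, CDH1 had a log2 fold change of 1.48 (edgeR adjusted p = 1.2e-09) and CDH2 of -0.96 (5.8e-08). The exons counted overlap annotated genes on the opposite strand by 212 bases for CDH1 and 136 bases for CDH2. The libraries were strand-specific, but whether counting used strand is not given in the sources used here, so reads over these bases cannot be assigned.

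The mesenchymal structural genes did not move together. Fibronectin, a glycoprotein that cells assemble into matrix, is encoded by FN1 at chr2:216225163-216300796 on the minus strand. FN1 had 105 and 99.0 CPM in siControl and 63.8 and 68.9 CPM in siTARG1. The groups did not overlap, and FN1 was 1.54-fold lower after TARG1 depletion (log2 fold change -0.62, SE 0.08, edgeR adjusted p = 2.3e-05). Its log2 ratio was -0.62 in coding exons and -0.78 in the 3′ UTR.

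Vimentin, the intermediate filament protein of mesenchymal cells, is encoded by VIM at chr10:17270240-17279592 on the plus strand. VIM had 210 and 210 CPM in siControl and 214 and 196 CPM in siTARG1. The siTARG1 libraries lay on both sides of the control level, and no difference passed the test (log2 fold change -0.04, SE 0.07, edgeR adjusted p = 0.69). The 95% interval of the fold was 0.884 to 1.08, so a change as large as that of CDH2 or FN1 lies outside it. By RPKM, VIM was the most abundant of the 10 genes in both siRNA groups, at 39.7 ± 4.30 in siControl and 42.0 ± 8.83 in siTARG1 (SD, n = 2). The VIM to CDH1 ratio of RPKM was 4.57 and 4.57 in siControl and 1.65 and 1.51 in siTARG1, since CDH1 rose. The antisense gene VIM-AS1 overlaps 641 of the 2154 bases counted for VIM.

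SNAI2 and ZEB1, whose products repress CDH1, were at or near 0 in every group. SNAI2, which encodes Slug (chr8:49830157-49834299, minus strand), had 0 counts in all 8 libraries, and ZEB1 (chr10:31607424-31818742, plus strand) had 1 count in 1 RACK1-WT library and 1 in 1 RACK1-Mut library and 0 in the other 6. A count of 0 allows up to 3 counts, or 0.0697 to 0.0981 CPM depending on the library. PCR reads without molecular identifiers are not independent molecules, so this limit covers counting error only. Both genes failed the filter on low counts and were not tested, so 8 of the 10 genes were.

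ZEB2, the relative of ZEB1 at chr2:145121931-145278624 on the minus strand, had 12 and 14 counts in siControl and 14 and 23 counts in siTARG1. The groups overlapped (log2 fold change 0.25, SE 0.41, edgeR adjusted p = 0.65), and the 95% interval of the fold, 0.648 to 2.17, leaves a change in either direction undetectable at this depth. Of the bases counted for ZEB2, 181 lie under the antisense gene ZEB2-AS1.

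SNAI1, which encodes Snail (chr20:48599517-48605423, plus strand), was the most abundant of these transcription factor genes in the siRNA experiment. It had 8.13 and 7.75 CPM in siControl and 6.86 and 5.60 CPM in siTARG1, with no overlap. It fell by 0.35 on the log2 scale (SE 0.13, edgeR adjusted p = 0.042), a 1.28-fold difference. The call was lost with DESeq2 (adjusted p = 0.098), in a fit of the 4 siRNA libraries alone (0.064), and when siControl replicate 1 (0.18), siControl replicate 2 (0.081), siTARG1 replicate 2 (0.24) or either RACK1-WT library (0.055 each) was left out. Without siTARG1 replicate 2 the log2 fold change was -0.22.

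TWIST1, a basic helix-loop-helix factor gene at chr7:19060614-19157259 on the minus strand, was near the detection limit in the siRNA experiment. It had 17 and 22 counts in siControl and 13 and 19 counts in siTARG1, which is 0.425 and 0.719 CPM against 0.307 and 0.455 CPM. The groups overlapped and the difference did not pass the test (log2 fold change -0.54, SE 0.40, edgeR adjusted p = 0.29). Over all libraries, 71.7% of TWIST1 exon counts fell in the 3′ UTR.

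ESRP1, the epithelial splicing regulator gene at chr8:95653302-95719694 on the plus strand, had 132 and 136 CPM in siControl and 120 and 118 CPM in siTARG1. It was thus lower in both siTARG1 libraries, against the direction of CDH1. The log2 fold change was -0.17 (SE 0.06, edgeR adjusted p = 0.042), a 1.12-fold difference. This call was lost in 10 of 16 alternative settings, with adjusted p up to 0.22. They include DESeq2 (0.055), no filter on low counts (0.056), the 4 siRNA libraries alone (0.095), and leaving out any library (0.052 to 0.22) other than RACK1-Mut replicate 2.

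**Figure D2:**
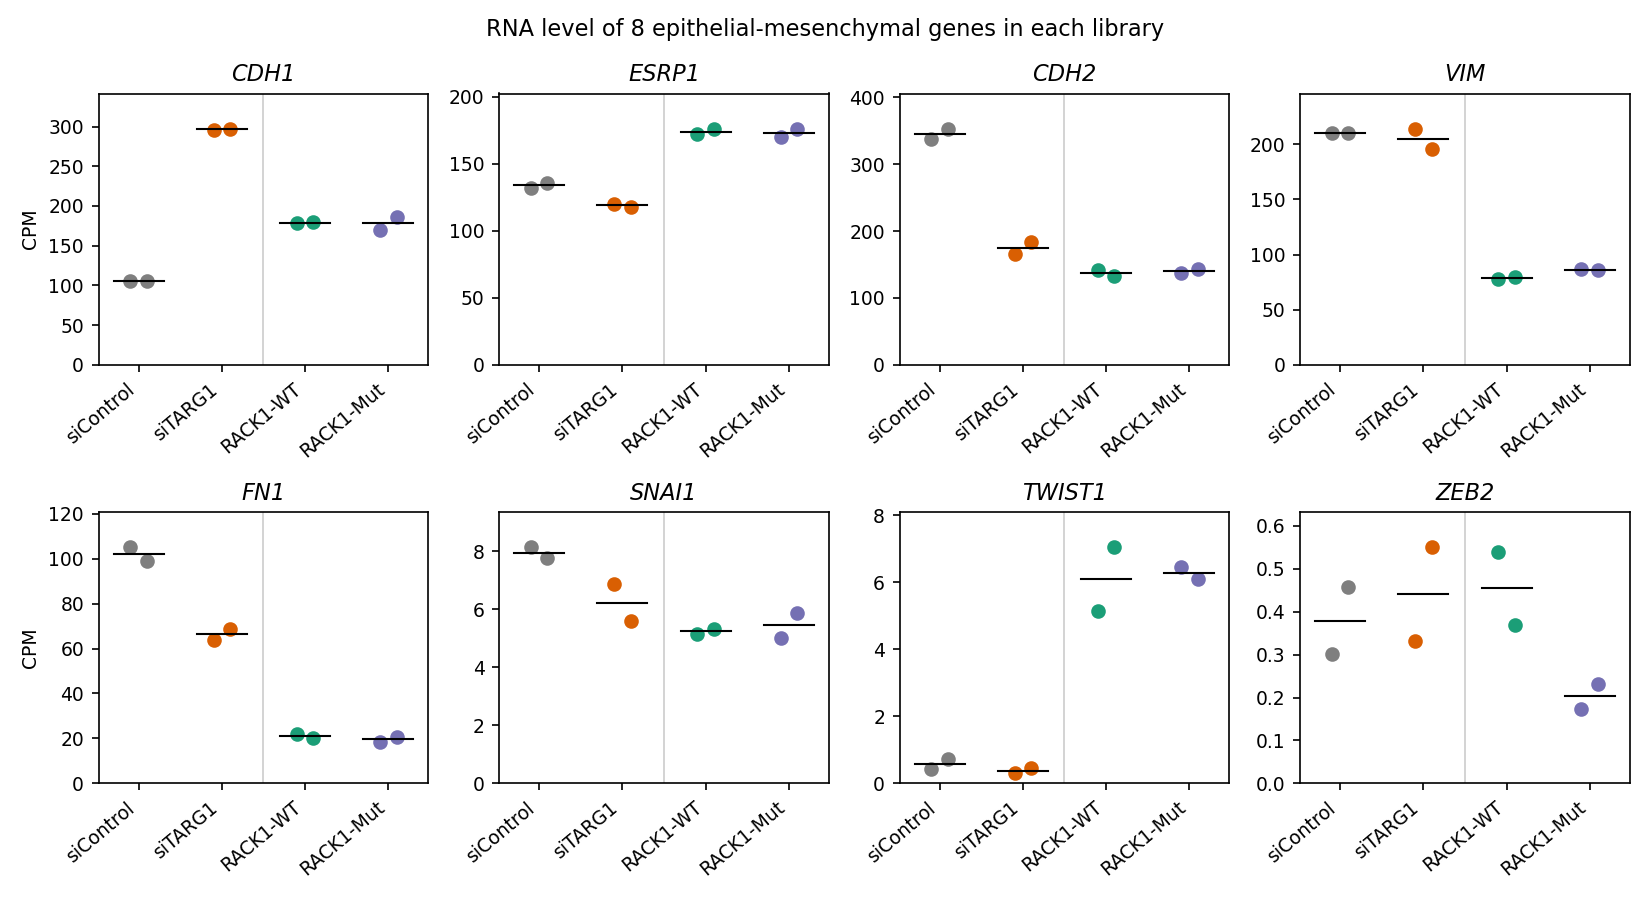
CPM (vertical axis, linear, starting at 0 and scaled for each gene) of the 8 tested genes in each library (points), with the group mean as a bar, for the 4 groups on the horizontal axis; a grey line parts the siRNA from the RACK1 experiment. CDH1 rises from 105 to 297 CPM between siControl and siTARG1 while CDH2 falls from 345 to 175 CPM, and RACK1-WT and RACK1-Mut overlap for every gene drawn except VIM and ZEB2.

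Counted together, 5 of the 8 tested genes passed the threshold of an adjusted p of 0.05 between siTARG1 and siControl, CDH1 upward and CDH2, FN1, SNAI1 and ESRP1 downward. Over all 14024 genes tested, 46.6% passed, 23.5% higher and 23.1% lower, so a passing gene was common in this comparison. DESeq2 called 5947 of these 14024 genes. With DESeq2 or with the 4 siRNA libraries alone, 3 members passed, namely CDH1, CDH2 and FN1, and these passed in all 16 alternative settings. The median log2 fold change of the 8 genes was -0.26, against 0.01 over all genes tested.

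The second comparison asked whether loss of the mono-ADP-ribose acceptor sites of RACK1 was accompanied by changes in RNA level, and none of the 8 tested members passed. CDH1 had 178 and 180 CPM in RACK1-WT and 170 and 186 CPM in RACK1-Mut. CDH2 had 142 and 133 CPM in RACK1-WT and 137 and 143 CPM in RACK1-Mut. Both cadherins overlapped between the groups, with log2 fold changes of -0.01 (SE 0.07) and 0.02 (SE 0.07) and edgeR adjusted p = 1 for each. The 95% interval of the fold was 0.902 to 1.1 for CDH1 and 0.912 to 1.13 for CDH2.

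FN1 had 22.0 and 20.1 CPM in RACK1-WT and 18.5 and 20.8 CPM in RACK1-Mut, and ESRP1 172 and 176 CPM against 170 and 176 CPM. These also overlapped, with 95% intervals of the fold of 0.820 to 1.07 and 0.906 to 1.09. SNAI1 had 5.15 and 5.33 CPM in RACK1-WT and 5.01 and 5.88 CPM in RACK1-Mut, and TWIST1 had 5.14 and 7.04 CPM against 6.45 and 6.09 CPM. The RACK1-WT libraries differed from each other in TWIST1 by more than the means of the groups did, and its interval was 0.797 to 1.32.

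VIM and ZEB2 were the members whose RACK1 groups did not overlap. With 2 libraries per group, lack of overlap is a weak criterion that does not set a gene apart. Its share over all genes tested is not given here for either comparison. VIM had 77.9 and 79.7 CPM in RACK1-WT and 87.2 and 85.6 CPM in RACK1-Mut (log2 fold change 0.13, SE 0.07, edgeR adjusted p = 1, 95% interval of the fold 0.991 to 1.21). ZEB2 had 17 and 13 counts in RACK1-WT and 7 and 10 counts in RACK1-Mut (log2 fold change -1.14, SE 0.46). It was the single member with an unadjusted p under 0.05, 0.028, and its edgeR adjusted p was 0.98. Over all genes tested, 1 gene passed in this comparison, 0.00713%, and 687 had an unadjusted p under 0.05. DESeq2 called 17 genes and no member. The median log2 fold change of the members was 0.01, against 0.00 over all genes.

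**Figure D3:**
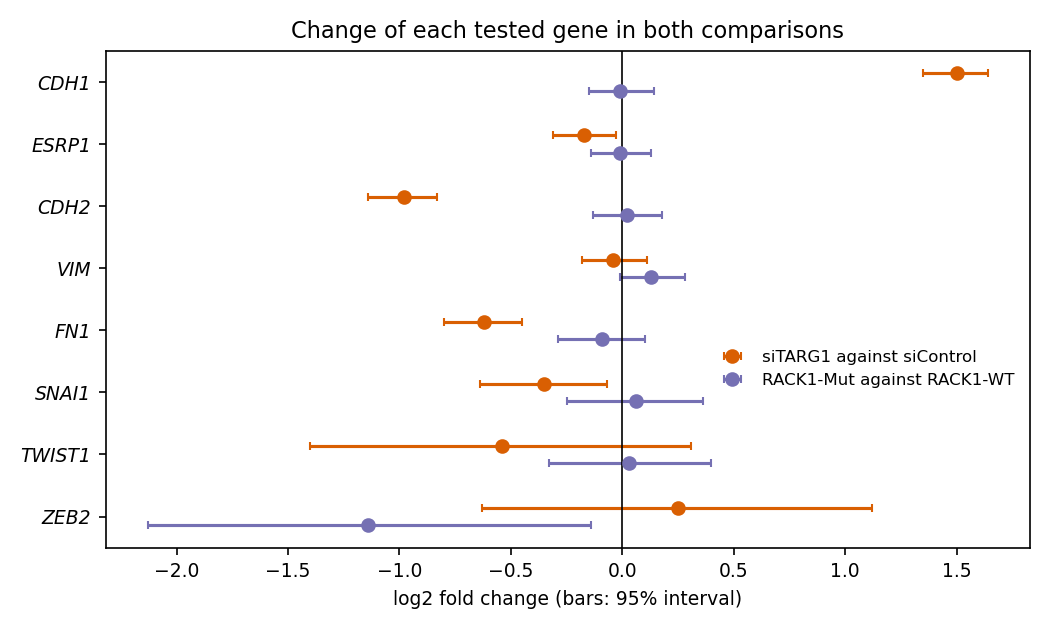
Log2 fold change (horizontal axis) of each tested gene with its 95% interval from the edgeR fit, for siTARG1 against siControl and for RACK1-Mut against RACK1-WT. The siTARG1 points of CDH1 at 1.50, CDH2 at -0.98 and FN1 at -0.62 lie clear of 0, whereas the RACK1 points lie within 0.15 of 0 for all genes but ZEB2.

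The difference between the 2 effects was tested in the same fit. The effects come from 2 experiments that differ in transfection, Dox, constructs and selected line together. A difference between them therefore cannot be assigned to TARG1 or to the RACK1 sites. It passed for CDH1 (difference of log2 fold changes 1.50, SE 0.09, edgeR adjusted p = 1.2e-07), CDH2 (-1.01, SE 0.10, 6.5e-06) and FN1 (-0.53, SE 0.12, 0.004). These are 3 of the 8 tested members, beside 32.4% of all genes tested. For SNAI1 the difference was -0.41 (edgeR adjusted p = 0.13), for ESRP1 -0.16 (0.19), for VIM -0.17 (0.20), for TWIST1 -0.58 (0.34) and for ZEB2 1.38 (0.10).

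The levels of the members also differed between the experiments, in ways the design does not let be assigned, because transfection, Dox, the constructs and the selected line changed together. No test was made across them, and the share of alignments on exons also differed between them. TWIST1 showed the widest spread: 39 counts over both siControl libraries and 32 over both siTARG1 libraries, against 409 in RACK1-WT and 523 in RACK1-Mut. Its mean was 0.572 ± 0.208 CPM in siControl and 6.09 ± 1.34 CPM in RACK1-WT (SD, n = 2), 10.6-fold apart, and every RACK1 library lay above every siRNA library. FN1 went the other way, from 102 ± 4.48 CPM in siControl to 21.0 ± 1.35 CPM in RACK1-WT, 4.86-fold lower. VIM was 2.67-fold lower in RACK1-WT than in siControl and CDH2 2.51-fold lower. CDH1 was 1.70-fold higher in RACK1-WT than in siControl and ESRP1 1.30-fold higher, while SNAI1 was 1.52-fold lower. Against siControl, the RACK1-WT group thus had more CDH1 and ESRP1 and less CDH2, VIM, FN1 and SNAI1, together with more TWIST1.

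The order of the 4 groups differed from gene to gene. CDH1 was highest in siTARG1, then in RACK1-WT and RACK1-Mut, which overlapped, and lowest in siControl. CDH2 was highest in siControl, then in siTARG1, and lowest in the RACK1 groups, which overlapped. VIM was highest in siControl and siTARG1, which overlapped, then in RACK1-Mut and then in RACK1-WT. FN1 fell from siControl to siTARG1 to the overlapping RACK1 groups, and ESRP1 was highest in the overlapping RACK1 groups, then in siControl and lowest in siTARG1.

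Within a group, the order of the genes by RPKM also shifted. In siControl it ran VIM (39.7), CDH2 (32.2), ESRP1 (13.9), CDH1 (8.69), FN1 (4.65), SNAI1 (1.91), TWIST1 (0.136) and ZEB2 (0.0153). In siTARG1, CDH1 stood second at 26.5 RPKM, above CDH2 at 17.5 and ESRP1 at 13.4. In RACK1-WT, ESRP1 came first at 24.5 RPKM, then VIM at 20.1, CDH1 at 19.9 and CDH2 at 17.3, and TWIST1 at 1.98 stood above FN1 at 1.29. VIM and CDH1 did not differ there beyond their spread, with SDs of 1.02 and 1.17 RPKM.

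The genes whose pattern was most like that of a member were sought by the root mean square difference of log2 CPM over the 8 libraries, each gene centred on its mean, among 10716 genes with a mean of at least 5 CPM. Closest to CDH1 were FNIP2, a folliculin-interacting protein gene, with a difference of 0.0351, and the dynamin gene DNM3 with 0.0722. FNIP2 averaged 13.7 CPM in siControl, 41.7 in siTARG1, 24.6 in RACK1-WT and 24.1 in RACK1-Mut. Closest to CDH2 were PCDH18, a protocadherin gene, with 0.0542, and DSEL, a dermatan sulfate epimerase-like gene, with 0.0754. PCDH18 averaged 11.7, 5.81, 4.13 and 4.28 CPM in the same order of groups. Closest to VIM were the glutathione transferase gene GSTP1 with 0.0530 and FCGBP with 0.0613, and GSTP1 averaged 546, 556, 226 and 238 CPM.

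Other genes of the pathway were read from 6 lists, none of which holds a member. They are described by counts and medians, to be read beside the 23.5% of all genes that were higher and the 23.1% that were lower in siTARG1. In the RACK1 comparison no gene of any list passed.

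Among epithelial adhesion genes, 14 of 29 tested passed in siTARG1, 7 higher and 7 lower, with a median log2 fold change of -0.02. CLDN1, a tight junction claudin gene, rose from 11.4 and 11.9 CPM to 21.7 and 23.2 CPM (log2 fold change 0.95, edgeR adjusted p = 8.4e-06). Of the catenin genes, whose products bind or link the cadherin tail, CTNNA1 fell from 732 and 713 CPM to 377 and 361 CPM (-0.97, edgeR adjusted p = 5.7e-08) and CTNNB1 from 432 and 403 CPM to 239 and 240 CPM (-0.80, 4.4e-07). The other catenin genes of the list, named after their values were seen, moved less: CTNND1, in a row shared with TMX2, had a log2 fold change of -0.21 (edgeR adjusted p = 0.012). JUP, which encodes plakoglobin, averaged 176 CPM in siControl and 188 CPM in siTARG1 and did not pass (0.10, edgeR adjusted p = 0.37). MUC1, a membrane mucin gene, had 1.11 and 0.887 CPM in siControl and 1.46 and 1.63 CPM in siTARG1 (0.62, edgeR adjusted p = 0.045). The MUC1 call was lost without either siControl library (0.058 without replicate 1 and 0.19 without replicate 2), either siTARG1 library (0.062 and 0.15) or either RACK1-Mut library (0.06 and 0.063), and also with DESeq2 (0.067), with the 4 siRNA libraries alone (0.054) and on coding-sequence counts (0.11). With the 4 siRNA libraries alone, 9 adhesion genes passed, and the share over all genes in that fit is not given here.

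Among epithelial regulators, 13 of 23 tested passed, 4 higher and 9 lower, with a median of -0.07. FOXA2, a forkhead factor gene, fell from 1.71 and 1.50 CPM to 0.378 and 0.670 CPM (log2 fold change -1.62, edgeR adjusted p = 0.00019), and TFAP2C, which encodes AP-2 gamma, from 7.22 and 5.98 CPM to 3.45 and 3.54 CPM (-0.92, 5.3e-05). TP63, the gene of a basal epithelial transcription factor, rose from 0.752 and 0.916 CPM to 2.03 and 1.67 CPM (1.16, edgeR adjusted p = 0.0014). OVOL1, a zinc finger gene that favours the epithelial state, rose from 1.35 and 1.24 CPM to 1.87 and 2.51 CPM (0.75, edgeR adjusted p = 0.022). The OVOL1 call was lost without siControl replicate 1 (0.057), siControl replicate 2 (0.078) or siTARG1 replicate 2 (0.16), with DESeq2 (0.06) and on coding-sequence counts (0.15).

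Among EMT transcription factors other than the members, 5 of 13 tested passed, 3 higher and 2 lower, with a median of 0.17. TCF3, which encodes the E2A proteins that bind E-boxes, rose from 210 and 211 CPM to 350 and 330 CPM (log2 fold change 0.69, edgeR adjusted p = 1.9e-06). QKI, an RNA-binding splicing regulator gene and so no transcription factor gene, rose from 72.9 and 85.7 CPM to 90.5 and 107 CPM (0.32, edgeR adjusted p = 0.013). SOX9 fell from 7.07 and 7.65 CPM to 4.92 and 4.69 CPM (-0.61, edgeR adjusted p = 0.0015), and KLF8, a Krüppel-like factor gene, from 3.49 and 2.98 CPM to 2.05 and 2.03 CPM (-0.67, 0.0063). The QKI call was lost without siControl replicate 1 or without siTARG1 replicate 2 (adjusted p = 0.13 each, log2 fold changes 0.21 and 0.18) and the KLF8 call without siControl replicate 1 (0.083).

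**Figure D4:**
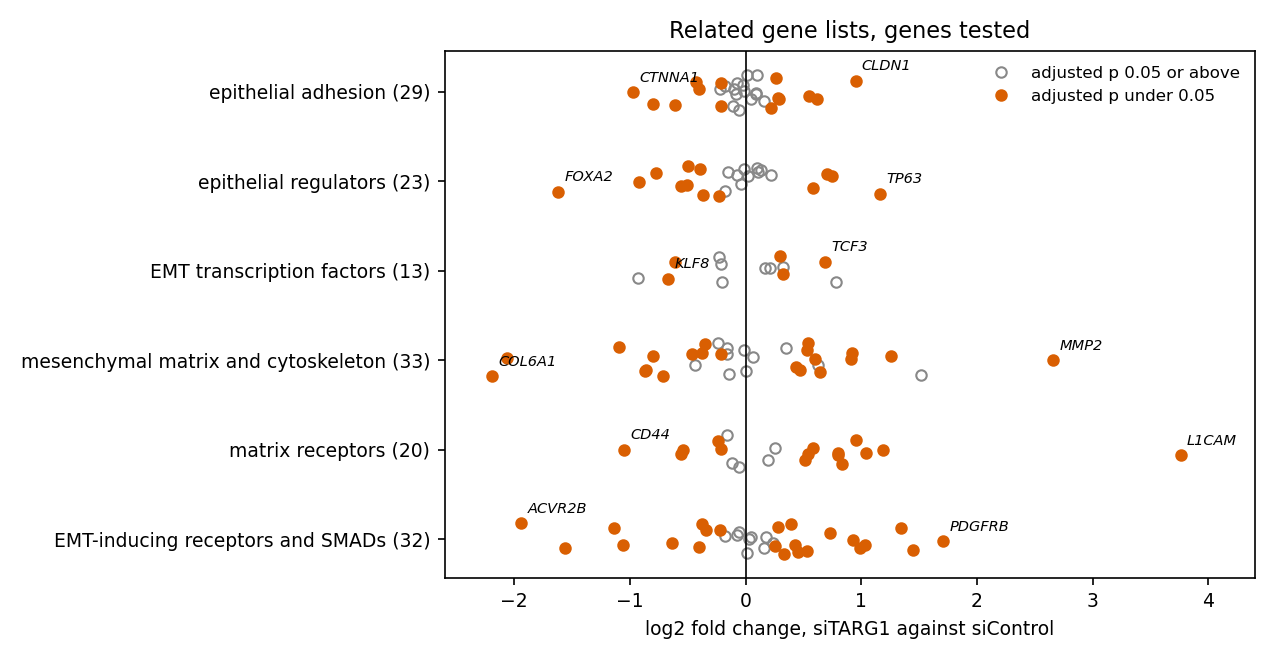
Log2 fold change of siTARG1 against siControl (horizontal axis) for each tested gene (points, spread vertically to avoid overlap) of the 6 lists, with the number tested after each name; filled points passed the adjusted p of 0.05. COL3A1, with 0 counts in siTARG1, is not drawn. Every list holds filled points on both sides of 0, and L1CAM at 3.76 lies farthest from it.

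Among mesenchymal matrix and cytoskeleton genes, 22 of 33 tested passed, 10 higher and 12 lower, with a median of -0.14. COL6A1, a collagen VI chain gene, fell from 13.4 and 12.9 CPM to 2.74 and 3.04 CPM (log2 fold change -2.19, SE 0.14, edgeR adjusted p = 2.7e-08). COL3A1, the collagen III gene, had 3 and 5 counts in siControl and 0 and 0 in siTARG1. Against a floor of 3 counts over the siTARG1 group it was 3.18-fold lower. This value ignores the counting error of the siControl counts and is no bound. COL3A1 passed the test (edgeR adjusted p = 0.009). That call was lost without siControl replicate 2 (0.056) and on coding-sequence counts (0.074). MMP2, a gelatinase gene, had 5 and 0 counts in siControl and 21 and 18 counts in siTARG1 (log2 fold change 2.66, edgeR adjusted p = 0.0071). Its fitted change is no bound, since siControl replicate 2 had no count, and it came to 7.15 with siControl replicate 1 left out and to 1.87 with siControl replicate 2 left out. CNN1, the calponin gene of contractile cells, had 10 and 6 counts in siControl and 26 and 20 in siTARG1 (1.26, edgeR adjusted p = 0.019). The CNN1 call was lost without siControl replicate 1 (0.061), siControl replicate 2 (0.095) or siTARG1 replicate 1 (0.11), with DESeq2 (0.08) and on coding-sequence counts (0.097).

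Among matrix receptors, 15 of 20 tested passed, 10 higher and 5 lower, with a median of 0.38. L1CAM, a cell adhesion molecule gene first known from neurons, rose from 0.627 and 0.621 CPM to 8.63 and 8.40 CPM, 13.6-fold (log2 fold change 3.76, SE 0.19, edgeR adjusted p = 5.4e-09). It stood at 64.3 and 65.7 CPM in RACK1-WT and 42.7 and 54.5 CPM in RACK1-Mut. CD44, the hyaluronan receptor gene, fell from 28.0 and 28.4 CPM to 12.6 and 14.7 CPM (-1.05, edgeR adjusted p = 1.2e-06). The row of ITGB3, an integrin beta chain gene, also holds transcripts of EFCAB13 and cannot be assigned to either, and it fell by 0.56 on the log2 scale (edgeR adjusted p = 0.00013). DDR2, a collagen-binding receptor kinase gene, had 10 and 9 counts in siControl and 19 and 33 in siTARG1 (1.19, edgeR adjusted p = 0.034), a call lost without siControl replicate 1 (0.15), siControl replicate 2 (0.063) or siTARG1 replicate 2 (0.27, log2 fold change 0.72) and on coding-sequence counts (0.43, log2 fold change 0.74).

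Among receptors and SMADs that induce EMT, 23 of 32 tested passed, 14 higher and 9 lower, with a median of 0.17. ACVR2B, an activin receptor gene, fell from 87.0 and 86.9 CPM to 22.4 and 22.8 CPM (log2 fold change -1.94, SE 0.08, edgeR adjusted p = 5.6e-10). SMURF2, the gene of a ubiquitin ligase that targets TGF-β receptors and SMADs, fell from 414 and 463 CPM to 137 and 160 CPM (-1.56, edgeR adjusted p = 1.2e-08). SMAD7, the inhibitory SMAD gene, rose from 1.88 and 1.93 CPM to 5.60 and 4.83 CPM (1.45, edgeR adjusted p = 3.5e-06). PDGFRB, a platelet-derived growth factor receptor gene, had 10 and 7 counts in siControl and 32 and 35 in siTARG1 (1.71, edgeR adjusted p = 0.00099). Members of this list that pass the signal on and members that restrain it were found on both sides.

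Fibroblasts, leukocytes and endothelial cells express many of the mesenchymal genes, so their markers were read in the same libraries. The 9 fibroblast markers summed to 65.2 to 69.6 CPM in siControl, 62.6 to 71.9 CPM in siTARG1, 61.4 to 63.5 CPM in RACK1-WT and 60.0 to 61.0 CPM in RACK1-Mut. Most of this came from the row of PDGFRA, at 50.3 to 64.4 CPM, which also holds transcripts of FIP1L1. COL1A1 came next, at 4.81 to 7.47 CPM, while DCN, a defining fibroblast gene, had at most 5 counts in a library. The 7 leukocyte markers summed to 4.09 to 8.84 CPM over all libraries, with CD3E at 0 in each. Most of that sum came from CD68, at 2.8 to 6.31 CPM, and CD14, at 0.451 to 2.47 CPM. The 4 endothelial markers analysed summed to 3.37 to 3.97 CPM in siTARG1 and 4.68 to 5.74 CPM in siControl, and CDH5 had at most 3 counts. In the RACK1 groups the endothelial markers summed to 9.41 to 11.6 CPM. Over all libraries, VWF was at 2.7 to 4.21 CPM and KDR at 0.402 to 7.25 CPM.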

How the data were processed

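The authors removed reads of rRNA with Bowtie 1.1.2, aligned the rest to Gencode v24 transcripts of hg19 with TopHat2 2.1.1, allowing up to 64 hits, and deposited estimated counts and RPKM per region for each library. The fractional counts were rounded to whole numbers, and CPM used TMM library sizes. Rows without a gene (532, holding 1.12% of counts) were kept, under the same filter and adjustment, and belong to no list. Transcript names (94.9% matched) were joined to symbols and GRCh37 positions through Gencode v44. The 14024 rows kept by filterByExpr were tested with edgeR 4.0.16 (quasi-likelihood, limma 3.58.1, R 4.3.3) over all 8 libraries as 4 groups, with Benjamini-Hochberg adjustment over all rows tested; intervals are 95%. Alternatives were DESeq2 1.42.0 and changes of scaling, filter, libraries, region and replicate block. Recovery of known changes was tested on simulated data, whose outcome is not given here and bears on no call above. The members and lists were chosen with earlier results of these data known. In each list the 2 highest and the 2 lowest changes that passed with no overlap between libraries were named. GRHL2, FOXC1, FOXC2, NOTCH1 and PECAM1 were not analysed here. CLDN4, TWIST2, PRRX1, GSC, MSX1, MSX2, CDH11, COL5A1 and POSTN had a row but failed the filter.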

Additional observations from a re-analysis of the deposited data

Results flagged for a closer look

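The effect of TARG1 depletion differed from that of the RACK1 mutation for 3 members, by the difference between both log2 fold changes in the same edgeR fit. The experiments also differ in transfection, Dox, constructs and selected line, so the source of the difference cannot be told apart. For CDH1 the difference was 1.50 (adjusted p = 1.2e-07): the gene was higher in both siTARG1 libraries and overlapped between the RACK1 groups. For CDH2 it was -1.01 (adjusted p = 6.5e-06), and for FN1 -0.53 (adjusted p = 0.004). These genes passed in all 15 alternatives that gave the difference, beside 32.4% of all genes that passed it in the fit reported. Groups of 2 libraries were too small to single out a library.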

How the results depend on the processing

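CDH1, CDH2 and FN1 kept their direction and their call between siTARG1 and siControl in all 16 alternatives, with log2 fold changes of 1.48 to 1.51, -1.07 to -0.91 and -0.69 to -0.57. With DESeq2 or the 4 siRNA libraries alone, 3 members passed, and 3 to 5 passed when a library was left out; 3 to 4 passed for the difference of effects. Adhesion genes past the threshold in siTARG1 numbered 9 with 4 libraries and 9 to 14 with a library left out. In the RACK1 comparison, the 4 libraries alone gave 1 adhesion gene (CLDN3), 1 matrix receptor (L1CAM) and 1 inducing receptor (FZD7). The labels share only replicate numbers between groups. Over 11002 genes, deviations of same-numbered libraries correlated at 0.577 in the siRNA and 0.0522 in the RACK1 experiment, each with 2 libraries per group. With the replicate block, 8 EMT transcription factors passed in siTARG1, and 1 adhesion gene (CLDN3), 2 matrix receptors (ITGB6 and L1CAM) and 1 inducing receptor (FZD7) in RACK1-Mut. Of all 14024 genes tested, DESeq2 called 5947 in siTARG1 and 17 in RACK1-Mut. For the other alternatives the share over all genes is not given here, so their counts do not set the members or lists apart.

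The median log2 fold change of the members in siTARG1 was -0.18 with no filter, -0.35 with at least 10 counts in every library and -0.45 on coding-sequence counts, where fewer members were tested, and -0.27 to -0.15 with a library left out. By the authors' RPKM the median log2 ratio was -0.14. Values near 0 that failed the test changed sign. In the RACK1 comparison CDH1 was 0.01 on coding-sequence counts and -0.07 to 0.06 with a library left out, CDH2 -0.02 to 0.07, SNAI1 -0.06 to 0.17, TWIST1 -0.17 to 0.28 and ESRP1 -0.03 to 0.02. In siTARG1, VIM was -0.10 to 0.02 and ZEB2 -0.17 to 0.57. Where no other reason is given, the cause of a change was not tested. Depth limited ZEB1, ZEB2, SNAI2 and, in the siRNA groups, TWIST1.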
